A study of Mus musculus with 6 samples.

Results

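The imprinted growth genes considered here are Mest, Ndn, Peg3, Plagl1, Grb10, Dlk1, Meg3, Peg10, Nnat and Magel2. They were chosen by name, and a probe was counted as theirs when its transcript accession led to one of these symbols in a RefSeq gene table. This gave 21 of the 39429 non-control probes on the array and 10 of the 20659 genes that could be named. Each member had at least 1 probe, 14 probes of 8 genes were bright enough to be tested, and Grb10 and Peg10 had no testable probe.

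The arrays carried RNA from cultures of adult mouse liver cells selected for CD63, a tetraspanin found on late endosomes and on exosomes. In 3 samples the liver had been injured with DDC, a porphyrinogenic compound that blocks haem synthesis and damages the bile ducts, and in 3 samples the liver was uninjured. The labels give no strain, age or dose. All cultures shared a DMEM/F12 medium with serum, HGF, EGF, insulin-transferrin-selenium, dexamethasone and nicotinamide, so the values describe expanded cultures and not cells fresh from the liver. The series speaks of cell lines, and nothing states that they came from separate animals. The p-values therefore measure the spread between these samples and not between animals. VEGF and bFGF went into some cultures that the labels name by number without tying them to a sample, and 2 no-injury files carry such numbers. Whether a difference belongs to the injury or to these factors cannot be told apart.

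An imprinted gene is read mainly from the copy inherited from 1 parent, often under the control of DNA methylation that was set on 1 copy in the germ line. Many such genes act on fetal growth: they are active in embryo and placenta, including the fetal liver, and are turned down in most adult tissues after birth. They lie in clusters, and within a cluster a shared control region can set several genes at once. An array measures the total RNA of both copies, so it shows the level of a gene and not which parental copy was read.

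The promoters of the 4 genes described in most detail below are given first, because a germ-line methylated control region often lies at or near the start of an imprinted gene. Each sequence is the 250 bases before a RefSeq transcript start on build GRCm38.p6, read 5′ to 3′ on the strand of the gene. Capitals mark the hexamer TGCCGC or, on the other strand, GCGGCA, which is the word that the imprint guardian Zfp57 reads when it is methylated. Both strands were searched, and no other motif was looked for. Mest has a distal start and a proximal cluster of starts, and 1 window is shown for each.
Mest, distal start, chr6:30733256-30733505, plus strand: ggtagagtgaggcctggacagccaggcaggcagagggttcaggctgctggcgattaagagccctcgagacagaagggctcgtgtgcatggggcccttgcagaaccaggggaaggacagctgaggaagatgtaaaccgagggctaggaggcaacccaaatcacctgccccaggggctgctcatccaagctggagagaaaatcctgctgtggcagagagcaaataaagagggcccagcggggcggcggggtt
Mest, proximal start, chr6:30737800-30738049, plus strand: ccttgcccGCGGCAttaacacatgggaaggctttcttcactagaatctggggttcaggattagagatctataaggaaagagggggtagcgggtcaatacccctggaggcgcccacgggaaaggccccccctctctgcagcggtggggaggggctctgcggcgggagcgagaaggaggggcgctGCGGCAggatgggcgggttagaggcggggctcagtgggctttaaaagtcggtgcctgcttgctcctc
Ndn, chr7:62348027-62348276, plus strand: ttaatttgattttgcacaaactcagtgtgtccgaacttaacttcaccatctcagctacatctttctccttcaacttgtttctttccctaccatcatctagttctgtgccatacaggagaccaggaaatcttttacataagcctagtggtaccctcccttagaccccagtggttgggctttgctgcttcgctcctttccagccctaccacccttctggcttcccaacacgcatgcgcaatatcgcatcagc
Peg3, chr7:6730420-6730669, minus strand: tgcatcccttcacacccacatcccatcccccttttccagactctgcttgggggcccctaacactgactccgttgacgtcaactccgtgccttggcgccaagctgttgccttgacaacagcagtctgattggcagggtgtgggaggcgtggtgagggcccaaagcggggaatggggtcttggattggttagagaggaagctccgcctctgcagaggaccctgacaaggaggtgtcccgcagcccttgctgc
Plagl1, chr10:13090582-13090831, plus strand: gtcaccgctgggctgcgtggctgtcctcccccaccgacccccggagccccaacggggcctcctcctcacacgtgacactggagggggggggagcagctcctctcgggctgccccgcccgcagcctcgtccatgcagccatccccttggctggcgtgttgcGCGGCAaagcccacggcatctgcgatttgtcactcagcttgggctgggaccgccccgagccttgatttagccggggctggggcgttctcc

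The proximal Mest window held 2 copies of the hexamer and 14 CpG dinucleotides, the sites at which DNA is methylated. The Plagl1 window held 1 copy and 19 CpG. The distal Mest window, with 7 CpG, the Peg3 window, with 8, and the Ndn window, with 5, held none. Over the RefSeq table, 8.68% of 32851 windows of this length held the hexamer, and the median window had 6 CpG. Among the members, 9 genes had 13 such windows, and 4 windows of 3 genes (Mest, Plagl1 and Meg3) held it. Of these, 2 Mest windows overlap almost fully and hold the same copies, so 1 stretch is counted in both. These letters say nothing of methylation or of binding in the cultures, which were not measured.

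Signals are given as log2 of the array's processed intensity minus that array's 75th percentile, so that 0 marks the 75th percentile. The lowest values well above background lay between -7.98 and -6.97 on the 6 arrays. A level belongs to 1 probe and cannot be set against the level of another probe. On each array 65.0% to 74.8% of spots were well above background and no spot was saturated. No-injury replicates 1 and 3 differed by less than the noise between repeated spots of the same array (chi-square 212.5 on 212 degrees of freedom, p = 0.4772), while replicate 2 differed from both (p = 6.731e-18 and 1.776e-63). The mean of replicates 1 and 3 was therefore used as 1 sample, which left 3 DDC injury and 2 no-injury samples to compare. The spread of no-injury replicate 2 from replicates 1 and 3 was 1.44 and 1.93 times the repeat noise. Between DDC injury arrays it was 4.96 to 15.22 times that noise, so the no-injury samples lay much closer together. The limma fit pools the spread of both groups, and its p-values do not measure the spread of each group apart. Arrays were scanned in 3 sessions, each of 1 group, with DDC injury replicate 1 alone on its own day. This array stood apart from the other 5 in several members, and results of members and their neighbours that rest on it are given with and without it.

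Of the 14 tested probes of the imprinted growth genes, 3 were higher in DDC injury cells and 2 were lower. All 3 higher probes belonged to Mest, and the 2 lower probes were those of Ndn and Peg3. A probe was called when limma's p, adjusted by the Benjamini-Hochberg method over all 27427 probes tested, was below 0.05. Over all probes tested, 15.5% were called higher and 13.8% lower, so the members' 21.4% and 14.3% lie near the background of this comparison. The median difference over the members' tested probes was -0.21, against -0.10 over all probes. The members thus showed no shared direction: 1 gene rose, 2 genes fell, and the other 5 genes with a tested probe did not pass the test.

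Mest encodes an enzyme-like protein of the alpha/beta hydrolase fold in the membrane of the endoplasmic reticulum and is read from the paternal copy in the embryo. Its probe A_51_P124535, which is printed 10 times on the array, read -2.11, -1.18 and -2.04 in DDC injury replicates 1 to 3. The same probe read -4.97, -4.98 and -4.87 in no-injury replicates 1 to 3. Every DDC injury array lay above every no-injury array, and replicate 2 of the injury group was the brightest of the 6.
The difference was 3.17 ± 0.34 (standard error of the limma fit, 3 against 2 samples), a 9.02-fold higher level in DDC injury cells, with a limma adjusted p of 0.00658.

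The other Mest probes, both named through a different RefSeq transcript of the gene than the first, moved the same way. Probe A_55_P2090025 read -3.22, -2.65 and -3.25 in DDC injury cells and -6.74, -6.25 and -6.36 in no-injury cells. That is a 10.3-fold difference (3.37 ± 0.25, limma adjusted p = 0.00332). Probe A_55_P2151868 read -5.38, -4.81 and -5.16 in DDC injury cells and -7.70, -7.81 and -8.00 in no-injury cells, where it was not well above background on any array. Its difference is therefore a bound: the DDC injury mean was at least 5.82-fold higher than the lowest measurable level of the no-injury arrays (fitted difference 2.71 ± 0.20, limma adjusted p = 0.00345). A bound of this kind sets the brighter mean against, on each dim array, the faintest signal that still counted as well above background, or the probe's own signal where that is higher. It holds for the processed signal of the main setting and not for other treatments of the background. The order of the 3 injury arrays was nearly the same in all 3 Mest probes, with replicate 2 on top each time.

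Within the day on which both groups were scanned, that is without DDC injury replicate 1, the Mest differences were 3.34, 3.46 and 2.85 in the same probe order. With no-injury replicate 2 left out, the no-injury group is 1 sample whose spread has to be borrowed from the injury group, and the Mest probes then lost their call (limma adjusted p = 0.0850, 0.0565 and 0.0647) at differences of 3.14, 3.52 and 2.73. With normexp background correction, which lifts dim signals, the Mest differences were 2.38, 1.63 and 0.81, the last of them not called (adjusted p = 0.0642). With the authors' values they were 2.81, 2.15 and 1.12. The bound given for A_55_P2151868 does not hold in these 2 settings.

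**Figure D1:**
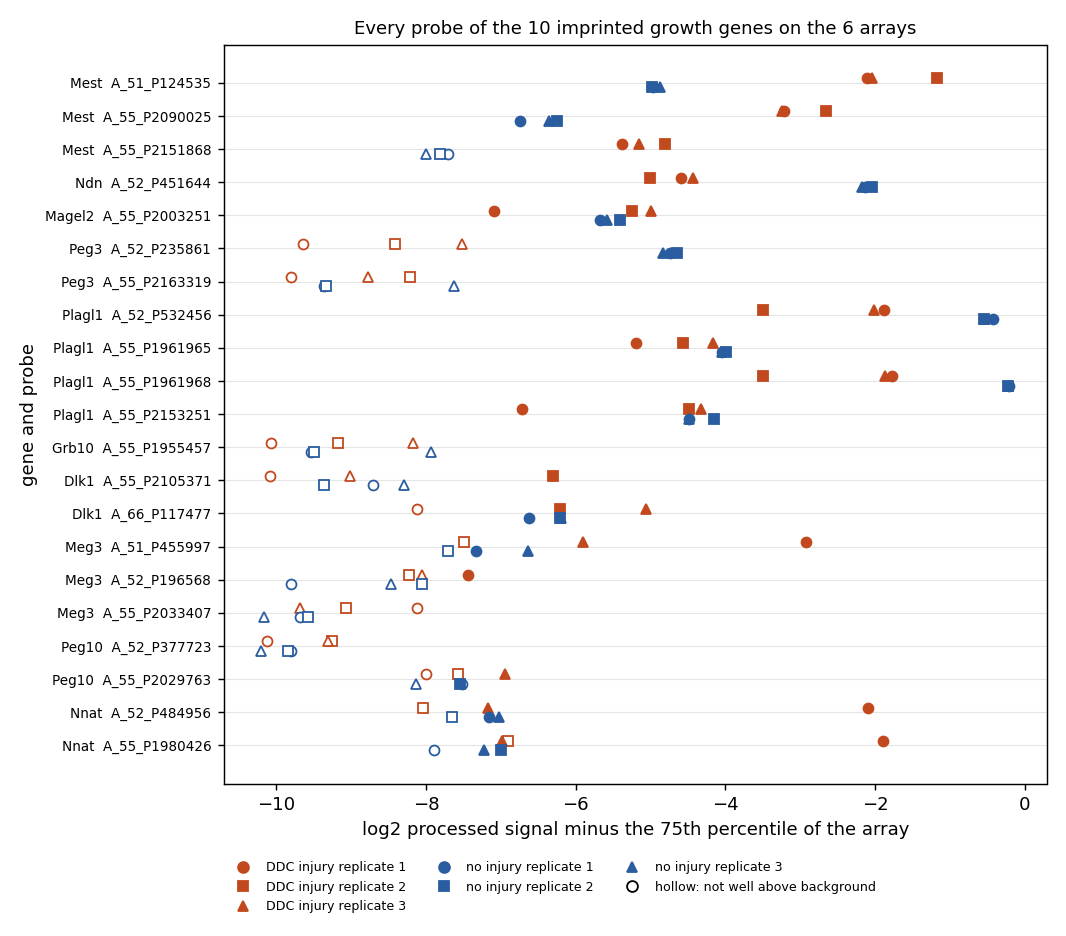
Signal of each of the 21 probes of the 10 imprinted growth genes on each of the 6 arrays, as log2 processed signal minus the 75th percentile of the array (x axis). Orange symbols are DDC injury and blue symbols no injury, the symbol shape gives the replicate, and hollow symbols were not well above background. The 3 Mest probes lie higher in all DDC injury arrays, the Ndn probe and Peg3 probe A_52_P235861 lie lower, and DDC injury replicate 1 sits far to the right in both Nnat probes and 1 Meg3 probe.

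Ndn and Magel2 are intronless neighbours on chromosome 7, both of the MAGE family and both read from the paternal copy. Necdin, the product of Ndn, is known for restraining cell division in neurons and other cells, and Magel2 works with ubiquitin ligases in protein sorting from endosomes. Ndn probe A_52_P451644 read -4.60, -5.01 and -4.43 in DDC injury cells and -2.13, -2.04 and -2.18 in no-injury cells. The groups did not overlap, and each lay within a narrow band of its own. Ndn was 5.99-fold lower in DDC injury cells (difference -2.58 ± 0.21, limma adjusted p = 0.00409).

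Without DDC injury replicate 1 the Ndn difference was -2.62, and without no-injury replicate 2 it was -2.52, where the call was lost (limma adjusted p = 0.0716). Magel2 probe A_55_P2003251 read -7.09, -5.25 and -5.00 in DDC injury cells and -5.68, -5.41 and -5.58 in no-injury cells. DDC injury replicates 2 and 3 lay just above all no-injury arrays and replicate 1 lay below them, so the groups overlapped. Its difference of -0.26 ± 0.71 did not pass the test (limma adjusted p = 0.813), and without DDC injury replicate 1 it was 0.40 (adjusted p = 0.130). The pair of neighbours was therefore called in 1 member only, and the difference between their differences was not tested.

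Peg3 and Plagl1 encode zinc finger proteins that bind DNA, Peg3 on chromosome 7 and Plagl1 on chromosome 10, and both are read mainly from the paternal copy. Plagl1, also known as Zac, is a growth-arresting factor that acts on other imprinted genes. Peg3 probe A_52_P235861 read -4.74, -4.65 and -4.83 in no-injury cells. In DDC injury cells the same probe read -9.64, -8.42 and -7.52, none of them well above background. Peg3 was thus measured in each no-injury array and in no DDC injury array.
On the processed signal of the main setting, the level was at least 6.57-fold lower in DDC injury cells (fitted difference -3.81 ± 0.67, limma adjusted p = 0.0198). The call rested on DDC injury replicate 2, without which the fitted difference was -3.86 (adjusted p = 0.0520), and on no-injury replicate 2, without which it was -3.74 (adjusted p = 0.150). With normexp background correction the Peg3 difference was -0.58 and not called (adjusted p = 0.214). With the authors' values it was -1.29 and called (limma adjusted p = 0.00469). The bound does not hold in either of these settings. The other Peg3 probe, A_55_P2163319, was well above background on no array and has no order between the groups.

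Plagl1 had 4 tested probes, all with lower means in DDC injury cells and none past the threshold. Probe A_52_P532456 read -1.88, -3.50 and -2.02 in DDC injury cells and -0.42, -0.55 and -0.54 in no-injury cells. Probe A_55_P1961968 read -1.78, -3.50 and -1.87 against -0.21, -0.23 and -0.22. In both, each DDC injury array lay below each no-injury array, and replicate 2 lay far under the other injury arrays, which widened the error.
The differences were -1.95 ± 0.56 (3.86-fold, limma adjusted p = 0.0656) and -2.16 ± 0.60 (4.46-fold, limma adjusted p = 0.0618). Without DDC injury replicate 2 they were -1.43 (adjusted p = 0.00723) and -1.60 (adjusted p = 0.00555), and without replicate 1 they were -2.24 and -2.46 (adjusted p = 0.0464 and 0.0462). Both Plagl1 probes kept their direction and were called in 8 alternatives each, among them normexp, the authors' values and 6 separate arrays, so their side of the threshold depends on the setting.

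The dimmer Plagl1 probes differed less. Probe A_55_P1961965 read -5.20, -4.57 and -4.16 in DDC injury cells against -4.04, -3.99 and -4.04 in no-injury cells, a difference of -0.63 ± 0.34 (limma adjusted p = 0.235) with no overlap. Probe A_55_P2153251 read -6.72, -4.49 and -4.33 against -4.49, -4.15 and -4.48, a difference of -0.86 ± 0.84 (limma adjusted p = 0.493) with overlap. Most of the last difference came from DDC injury replicate 1, without which it was -0.09. All 4 probes were named through the same RefSeq transcript, so the bright and the dim pair disagree in size for 1 gene.

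Grb10, on chromosome 11, is an adaptor that holds back signalling from the insulin and IGF1 receptors and is read from the maternal copy in most tissues. Its only probe, A_55_P1955457, was not well above background on any of the 6 arrays, so its level here is a bound and no direction is given. Dlk1, on chromosome 12, is a membrane protein with EGF-like repeats that resembles the Notch ligands and marks the hepatoblasts of the fetal liver. Dlk1 probe A_66_P117477 read -8.12, -6.21 and -5.06 in DDC injury cells, of which the first was not well above background, and -6.63, -6.21 and -6.20 in no-injury cells. The no-injury arrays fell inside the range of the injury arrays, and the difference was -0.16 ± 0.96 (limma adjusted p = 0.918). Without DDC injury replicate 1 it was 0.67 (adjusted p = 0.286). The other Dlk1 probe, A_55_P2105371, was well above background on DDC injury replicate 2 alone, at -6.31.

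Meg3 is the long noncoding RNA read from the maternal copy of the same chromosome 12 cluster. Meg3 probe A_51_P455997 read -2.93, -7.49 and -5.90 in DDC injury cells and -7.33, -7.70 and -6.64 in no-injury cells. DDC injury replicate 1 stood out above all other arrays, and replicate 2 lay among the no-injury arrays. The Meg3 difference of 1.90 ± 1.45 did not pass the test (limma adjusted p = 0.388) and was 0.64 without DDC injury replicate 1. Of the other Meg3 probes, A_52_P196568 was well above background on DDC injury replicate 1 alone, and A_55_P2033407 on no array.

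Nnat, on chromosome 2, encodes neuronatin, a small membrane protein of the endoplasmic reticulum that affects calcium handling and is read from the paternal copy. Nnat probe A_52_P484956 read -2.10, -8.04 and -7.17 in DDC injury cells and -7.16, -7.65 and -7.03 in no-injury cells. Probe A_55_P1980426 read -1.89, -6.91 and -6.98 against -7.89, -7.00 and -7.22. In both Nnat probes, DDC injury replicate 1 was bright and the other 5 arrays were near the background.
The differences of 1.61 ± 1.98 (limma adjusted p = 0.590) and 2.02 ± 1.81 (limma adjusted p = 0.459) therefore describe 1 culture and not the group. Without that array they were -0.23 and 0.33. Peg10, on chromosome 6, is a gene derived from a retrotransposon that the placenta needs. Its probe A_55_P2029763 was well above background on DDC injury replicate 3 (-6.94) and no-injury replicate 2 (-7.55) only, and its probe A_52_P377723 on no array.

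**Figure D2:**
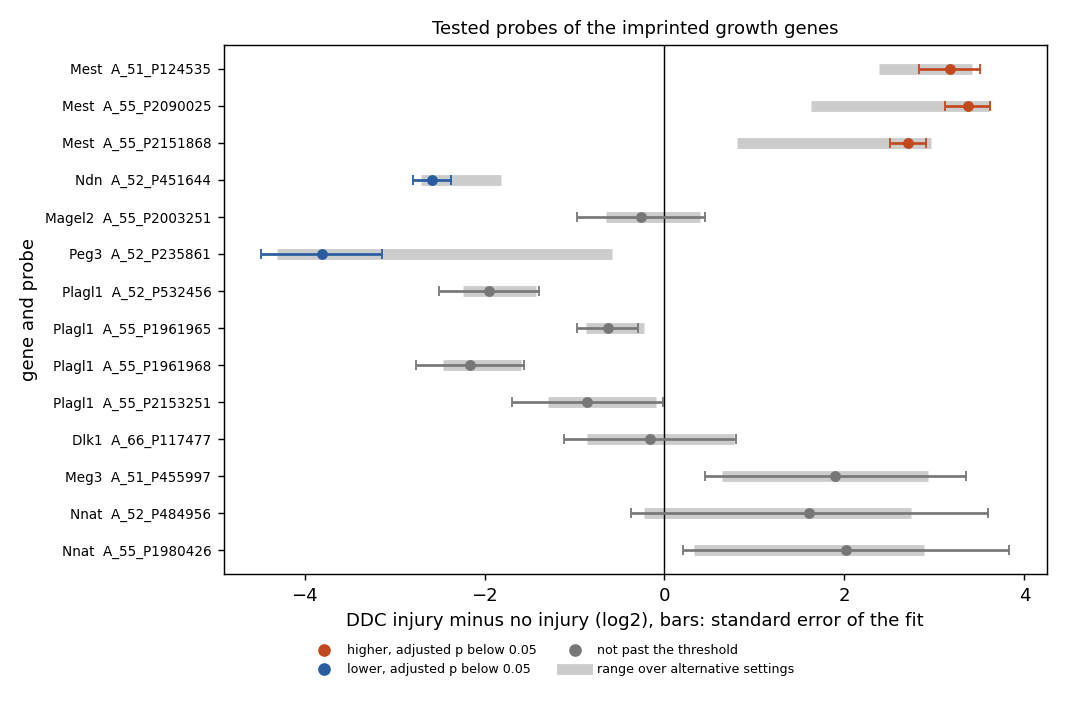
Difference between DDC injury and no injury on the log2 scale (x axis) for the 14 tested probes of the imprinted growth genes, with the standard error of the limma fit as bars and the range over the alternative settings in grey. The 3 Mest probes lie between 2.71 and 3.37, Ndn lies at -2.58 and Peg3 at -3.81, and the 4 Plagl1 probes lie between -2.16 and -0.63 without passing the threshold.

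Across the members' tested probes, 4 had every DDC injury array above every no-injury array and 5 had every one below. Over all tested probes these shares were 29.1% and 31%. Nonoverlapping groups were thus common on these arrays (60.1% of probes in either direction), and the members' counts are read against that.

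DDC injury replicate 1 was the array on which single members stood apart. Over the 92 probes of the members, their cluster neighbours and a list of other imprinted genes that were well above background on at least 1 array, 5 (5.43%) were at least 4-fold brighter there than on each of the other 5 arrays. These were both Nnat probes, Meg3 A_51_P455997, Gnas A_55_P2081323 and Nap1l5 A_51_P295410. In the other direction 6 (6.52%), namely probes of Plagl1, Klf14, Cpa4, Peg12, Zim3 and Kcnk9, were at least 4-fold dimmer there. Over all 30569 such probes the shares for this array were 0.903% and 3.84%. None of the 92 probes stood alone in this way on any other array. This count was made after the Nnat and Meg3 values had been seen, so it describes the array and is no test.

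The neighbours of the members were read from a list of 28 genes in the same imprinted clusters. Of these, 24 had a probe, and 25 probes of 19 genes were tested, of which 5 (20.0%) were higher and 2 (8.0%) lower in DDC injury cells, with a median difference of 0.16. In the Mest cluster, Copg2, a subunit of the coatomer of Golgi vesicles whose gene overlaps the end of Mest, had differences of 0.19 ± 0.26 and 0.17 ± 0.19 in its 2 probes (limma adjusted p = 0.611 and 0.544). The transcription factor gene Klf14 differed by -1.23 ± 0.97 and the carboxypeptidase gene Cpa4 by -0.99 ± 1.15, neither past the threshold, and both were lowest on DDC injury replicate 1. Without that array their differences were -0.32 and 0.07. No tested neighbour of Mest was called in either direction.

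In the cluster of Ndn and Magel2, genes were called in both directions. Mkrn3, a ubiquitin ligase of the makorin family, was lower (-0.62 ± 0.15, limma adjusted p = 0.0459) in 1 of 2 probes, and the other read -0.42 ± 0.11 (adjusted p = 0.0553). Snrpn, a splicing protein gene whose start marks the centre of this cluster, was higher in probe A_52_P354390 by 0.99 ± 0.24 (limma adjusted p = 0.0428). The Snrpn probes A_55_P1998194 and A_55_P1990116 read 0.89 ± 0.31 and -0.13 ± 0.18 and were not called. Atp10a, a lipid flippase at the far end, read -1.85, -2.07 and -1.99 in DDC injury cells and -3.21, -3.25 and -3.19 in no-injury cells, a 2.39-fold higher level (limma adjusted p = 0.00541). Peg12 (0.44 ± 0.43 and -0.20 ± 1.19) and the ubiquitin ligase gene Ube3a (0.26 ± 0.11) did not pass. Ndn therefore fell while 2 genes of its own cluster rose. The calls of Mkrn3 and Snrpn were lost without DDC injury replicate 3 (adjusted p = 0.111 and 0.120), and that of Mkrn3 also without replicate 1 (0.0619). Mkrn3 probe A_51_P342031 was called in 7 of 17 alternatives, losing its call also with normexp, quantile normalization, median centring, the authors' values, no filter on dim probes and scan as a random block, and ranged from -0.71 to -0.17. The call of Snrpn probe A_52_P354390 was kept in 12 of 18 and also lost with median centring, no filter on dim probes and scan as a random block. Without DDC injury replicate 1, Peg12 probe A_55_P2118759 turned to 0.91 (adjusted p = 0.0430).

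In the Peg3 cluster, Zim3 read -1.02 ± 2.21 with DDC injury replicate 1 at -9.83 and the other arrays between -5.41 and -3.52. Without that array the Zim3 difference was 1.02 and not called (limma adjusted p = 0.194). Usp29 was well above background on 1 DDC injury array, and Zim1 on none. Beside Grb10, the dopa decarboxylase gene, whose symbol Ddc only happens to match the name of the injuring compound, was 2.22-fold higher (1.15 ± 0.14, limma adjusted p = 0.00812), though with normexp the difference was 0.65 and not called. Cobl, an actin nucleator, read -1.32, -3.13 and -1.50 in DDC injury cells and close to 0 in no-injury cells, a difference of -1.96 ± 0.62 that missed the threshold (limma adjusted p = 0.0817). It kept its direction in 18 alternatives and was called in 5, among them normexp and the authors' values. Without DDC injury replicate 2 it was -1.39 and called (limma adjusted p = 0.00845).

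In the cluster of Dlk1 and Meg3, Dio3, the deiodinase that inactivates thyroid hormone, was the gene called. Dio3 probe A_55_P2091468 read -6.00, -5.28 and -5.37 in DDC injury cells and -3.42, -3.33 and -3.31 in no-injury cells. It was 4.60-fold lower in DDC injury cells (-2.20 ± 0.26, limma adjusted p = 0.00829), with -1.22 under normexp. Mirg, a noncoding host of microRNAs in the same cluster, differed by 0.16 ± 0.19 and did not pass. Rtl1 was not well above background on any array.

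Near Peg10, the paraoxonase genes Pon3 (0.98 ± 0.11, 1.97-fold, limma adjusted p = 0.00701) and Pon2 (0.57 ± 0.15, limma adjusted p = 0.0482) were higher. The Pon2 call was kept in 10 of 18 alternatives and lost, among others, without DDC injury replicate 1 (adjusted p = 0.0626) or replicate 3 (0.127), with quantile normalization and with median centring. Sgce, which shares its start region with Peg10, read 0.67 ± 0.35, Ppp1r9a -0.18 ± 0.75, and the 2 Asb4 probes -0.60 ± 0.71 and -0.53 ± 0.80, none of them called in the main setting. Without DDC injury replicate 1, Ppp1r9a was at -0.87 and called lower (limma adjusted p = 0.0166). The Asb4 probes were then at -0.10 and 0.20, not called. Calcr and Tfpi2 were well above background on no array. Blcap, the gene in whose intron Nnat lies, differed by 0.40 ± 0.19 and did not pass.

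**Figure D3:**
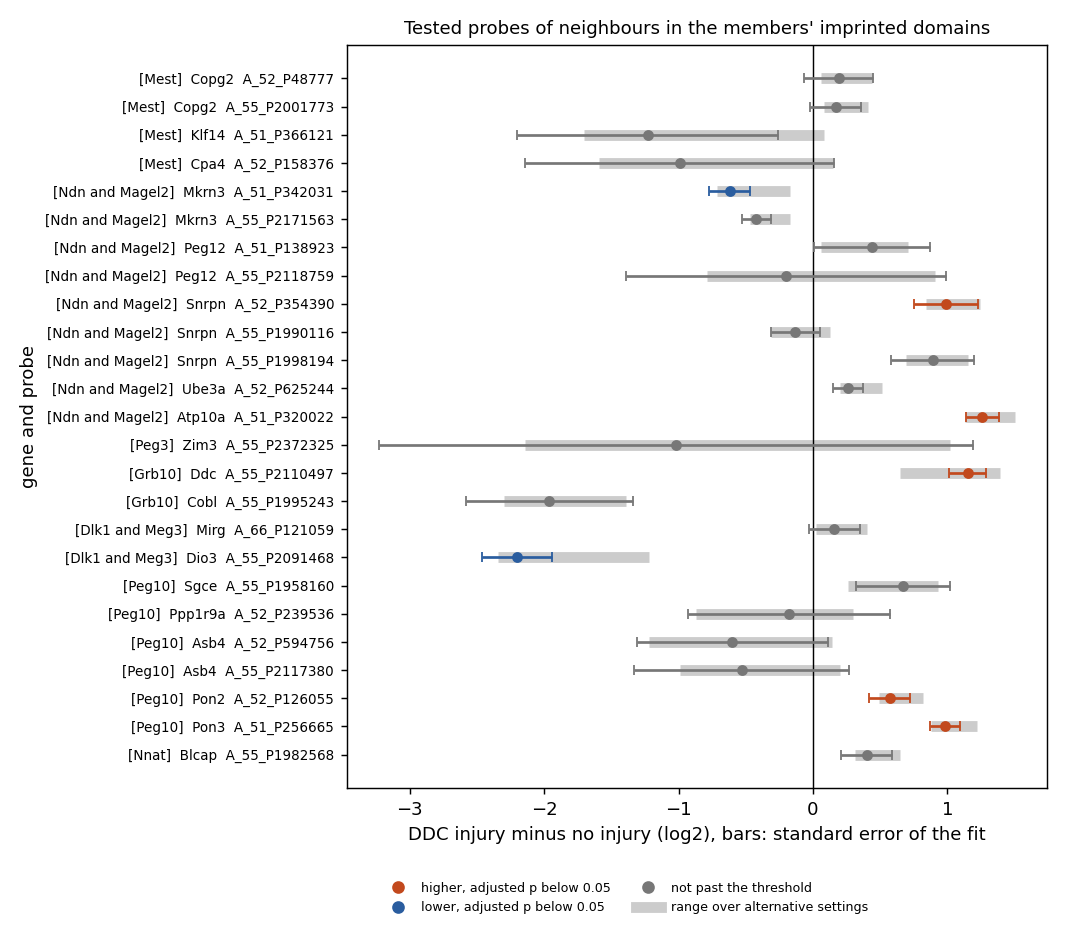
Difference between DDC injury and no injury on the log2 scale (x axis) for the 25 tested probes of genes near the members, with the member of the same cluster in brackets, the standard error of the limma fit as bars and the range over the alternative settings in grey. Called probes lie on both sides of 0, from Dio3 at -2.20 to Atp10a at 1.26.

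Over 41 imprinted genes of other clusters, 43 probes were tested, of which 6 (14.0%) were higher and 5 (11.6%) lower, with a median difference of -0.04. Kcnq1, a potassium channel gene, read -2.92, -2.92 and -2.80 in no-injury cells and was not well above background on any DDC injury array. In the main setting it was at least 23.4-fold lower (limma adjusted p = 0.00191). Its fitted difference ran from -6.62 to -2.23 over the alternatives, so this bound does not hold in all of them. Rasgrf1, an exchange factor for Ras, differed by -2.59, the noncoding RNA Peg13 by -1.88 and the docking protein gene Gab1 by -0.64. The other Rasgrf1 probe, A_52_P671676, was also called lower (-3.71 ± 0.37, limma adjusted p = 0.00571). It was not well above background on any DDC injury array, so its fold is a bound of at least 3.52 in the main setting. Higher by their brightest probes were Sfmbt2 (1.88), a Polycomb-associated gene, Nap1l4 (0.72), Trappc9 (0.60) and H13 (0.53). H13 probe A_55_P2090406 was also higher (0.73), while its probes A_52_P341161 (0.18) and A_52_P655663 (-0.74) were not called. The other Nap1l4 probe (0.12) and the other Trappc9 probe (0.18) were not called. Calls under the alternatives are given for the brightest probes. Rasgrf1, Peg13, Gab1, Sfmbt2, Trappc9 and H13 lost their calls without DDC injury replicate 3, and Peg13 also without replicate 2. The brightest Rasgrf1 probe ranged from -2.89 to -0.56 and was called in 10 of 17 alternatives. It lost its call also with normexp, quantile normalization, no filter on dim probes and scan as a random block. Of 18 alternatives, H13 was called in 11, Peg13 and Gab1 in 12, Trappc9 in 13, and Sfmbt2 and Nap1l4 in 15. Median centring ended the calls of Nap1l4, Trappc9, H13, Peg13 and Gab1. As in the members, calls fell on both sides.

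Of 26 tested probes of genes that set or keep imprints, 6 (23.1%) were higher and 1 (3.85%) was lower, with a median difference of 0.01. Higher were Dnmt1, the enzyme that copies DNA methylation at replication (1.60 ± 0.18, limma adjusted p = 0.00790), its partner Uhrf1 (3.01 ± 0.32), the chromatin remodeller gene Hells (2.28 ± 0.32) and Smchd1 (0.70 ± 0.13). The other Smchd1 probe, at 0.31 ± 0.34, was not called. Zfp445, a zinc finger guardian of imprints, was lower (-0.58 ± 0.15, limma adjusted p = 0.0465). The calls of Smchd1 and Zfp445 were lost without DDC injury replicate 3, and that of Zfp445 also without replicate 2. Smchd1 was called in 12 and Zfp445 in 9 of 18 alternatives, and both lost their calls with median centring and with scan as a random block. Dnmt1, Uhrf1 and Hells are also known to follow cell division, and 12 of 15 tested probes of 10 cell division genes were higher, with a median difference of 3.60. Mki67, the proliferation marker, read 3.76, 3.81 and 3.68 in DDC injury cells and 0.11, 0.17 and 0.16 in no-injury cells. Its part in the differences of Mest, Ndn and Peg3 was not tested.

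The receptors that Grb10 restrains and their partners gave 4 higher (13.8%) and 3 lower (10.3%) of 29 tested probes, with a median difference of 0.07. The insulin receptor gene Insr (-1.24 ± 0.14), the IGF1 receptor gene Igf1r (-0.76 ± 0.12) and Grb14, the closest relative of Grb10 (-1.43 ± 0.18), were lower. The other Insr probes, at -0.61 ± 0.16 and -0.81 ± 0.86, were not called. Igf1 itself, a ligand of these receptors, was higher in 3 of its 4 probes, most in A_55_P2031631, which read -1.49, -1.33 and -1.50 in DDC injury cells and -3.65, -3.58 and -3.63 in no-injury cells (4.51-fold, limma adjusted p = 0.00185). The Igf1r call was lost without DDC injury replicate 3, and those of Igf1r and Insr with median centring.

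Among 15 tested probes of the Notch pathway, which Dlk1 is thought to modulate, 3 (20.0%) were higher and 2 (13.3%) lower, with a median difference of -0.45. The receptor gene Notch3 was 6.95-fold higher (2.80 ± 0.22, limma adjusted p = 0.00360) and the target gene Hey1 was higher by 0.78 ± 0.11. The ligand genes Dll1 (-1.43 ± 0.35) and Jag2 (-0.53 ± 0.13) were lower, both calls being lost without DDC injury replicate 1 or 3. Dll1 was called in 8 of 18 alternatives and ranged from -1.66 to -0.47, losing its call also with normexp, quantile normalization, median centring, the authors' values, no filter on dim probes and scan as a random block. Jag2 was called in 10 of 18, its call also lost with normexp, median centring, no filter on dim probes and scan as a random block. Median centring also ended the call of Hey1. Over these 5 lists together, from the neighbours to the Notch pathway, 24 of 138 tested probes (17.4%) were higher and 13 (9.42%) lower. Without no-injury replicate 2, which leaves 1 no-injury sample, the Kcnq1 probe was the only 1 of these that kept its call.

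**Figure D4:**
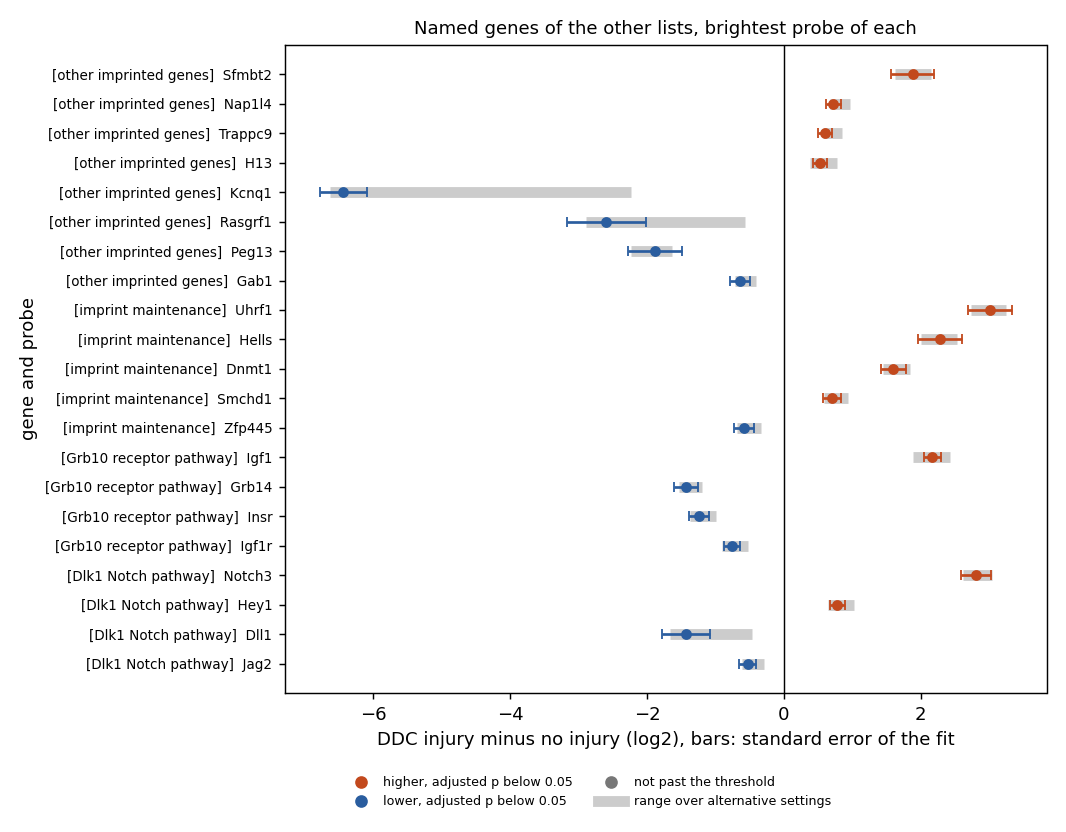
Difference between DDC injury and no injury on the log2 scale (x axis) for the genes named from the other lists, each by its brightest probe, with the list in brackets, the standard error of the limma fit as bars and the range over the alternative settings in grey. Kcnq1 lies lowest at -6.43 and Uhrf1 highest at 3.01.

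Markers of liver cell types were read beside these genes. Cd63, for which the cells were sorted, was high on all arrays and differed by -0.11 ± 0.17 (limma adjusted p = 0.677). Of the hepatoblast markers, 2 of 5 tested probes were higher and 1 was lower. Afp was higher by 2.86 ± 0.26, while Dlk1, a member and also a marker of these cells, was not called. Among 13 hepatocyte probes 5 were lower and 2 higher: Alb read -7.23, -5.52 and -7.41 against -0.57, -0.58 and -0.61, and Hnf4a did not pass (-0.09 ± 0.20). Of 9 cholangiocyte probes 5 were lower, with Epcam at -2.58 ± 0.24 and Krt19 at 0.37 ± 0.21, which did not pass. Stellate cell and fibroblast markers gave 1 higher of 6 tested probes, endothelial markers 0 of 7 either way (also 0 at an unadjusted limma p under 0.05), leukocyte markers 1 lower of 9 and mesothelial markers 3 lower of 5. Col1a1, Acta2, Pecam1, Ptprc and Msln did not pass.
Signals were also summed over the brightest probe of each gene, in units of the array's 75th percentile. Hepatoblast markers then ran from 11.6 to 12.6 in DDC injury cells and from 18.9 to 21.0 in no-injury cells. Their sum was thus lower although 2 of the 5 tested probes, Afp among them, were higher and only 1 was lower. A sum weighs the brightest probes most. The tested hepatoblast probes had a median difference of -0.16 and a lowest difference of -0.97, so the sum does not describe these markers as a set. Cholangiocyte markers ran from 51.1 to 56.3 in DDC injury cells and from 64.3 to 66.0 in no-injury cells. The groups overlapped in the sums of hepatocyte, mesothelial, endothelial, and stellate and fibroblast markers. Hepatocyte markers ran from 37.6 to 46.4 against 46.0 to 51.1, and mesothelial markers from 22.4 to 27.9 against 25.8 to 28.2. Endothelial markers ran from 0.174 to 0.602 against 0.548 to 0.817, and stellate and fibroblast markers from 0.193 to 1.17 against 0.365 to 0.533. Leukocyte markers ran from 0.216 to 0.474 against 1.43 to 1.75, without overlap. The leukocyte gap came mostly from 1 probe, Itgam A_55_P1977934, singled out after its values were seen, which read -2.68, -1.87 and -2.23 against 0.31, 0.67 and 0.26. The other 8 tested leukocyte probes, 2 more of Itgam among them, were not called. In bulk RNA, fewer cells of a type and less RNA per cell cannot be told apart, and the part of cell makeup in the members' differences was not tested.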

How the data were processed

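Each of the 6 samples was labelled with Cy3 and hybridised to 1 Agilent array (design 026655). The scans were read with Feature Extraction 11.0.1.1, per the file headers. The deposited intensity columns used here are the processed signal, which the scanner software had background-corrected, and the median raw spot and local background signals. The value table that the authors deposited is on a log2 scale (column medians 6.921 to 6.927) and served as an alternative. The submitters' processing notes name limma without a version, and further steps are not given in the sources used here.

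Of 43020 non-control spots, those with a non-uniformity or population outlier mark were dropped, and repeated spots were averaged per probe. Log2 processed signals were taken minus the array's 75th percentile. Of 39429 probes, 27234 led to 1 symbol through their accession in a RefSeq table of GRCm38.p6, 0 to several and 12195 to none. The arrays' own annotation is of another build, so no array coordinates are given, and promoter sequences are those of RefSeq on GRCm38.p6. A probe was tested if well above background on at least 3 arrays with at least 2 values per group. All tested probes, named or not, entered 1 limma fit (version 3.58.1, R 4.3.3; lmFit, then eBayes; two-sided; Benjamini-Hochberg adjustment; threshold 0.05). The fit was also run on simulated data drawn with the same spread in both groups. The measured groups differed in spread, so that run does not show how well the fit serves them. Where a group was not well above background on any array, the fold is a bound on the processed signal of the main setting.

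No-injury replicates 1 and 3 were averaged because 213 bright probes, each printed 10 times, did not tell them apart in a chi-square test. The number of samples limits the precision. The members, lists, naming rules and tests were chosen with earlier results of these data known. The text names every member probe, each neighbour with a tested probe, and up to 4 genes per direction from each other list, ranked by the difference of the brightest probe. The 18 alternatives covered how samples were counted, each array left out, blocks for replicate number and scan, background correction, scaling, the filter on dim probes, 1 probe per gene, array weights and the authors' values. The mean raw signal was not used; normexp (offset 50) ran on the median raw signals. Snurf, Zim2, Zfp264, Rian, H19, Nespas, Dlk2 and Cd68 had no probe named here.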

Additional observations from a re-analysis of the deposited data

How the results depend on the processing

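Of 18 alternatives, in each that gave a value the 3 Mest probes stayed higher and Ndn and Peg3 stayed lower. Their calls were lost with the no-injury arrays as 1 sample, whether averaged or without no-injury replicate 2, Mest probe A_55_P2151868 (0.81, adjusted p = 0.0642) and Peg3 also with normexp, and Peg3 also without DDC injury replicate 2. Peg12 probe A_55_P2118759, not called in the report, ran from -0.79 to 0.91 on leaving out 1 array, the latter without DDC injury replicate 1 and called. Leaving out 1 array each gave 252 to 5595 probes higher and 116 to 4776 lower over all probes, 0 to 3 and 0 to 4 over the members, and 0 to 34 and 1 to 25 over the 5 other lists, the lowest without no-injury replicate 2. Against 4243 probes higher and 3788 lower, the no-injury average gave 279 and 131 (members 0 and 0, lists 0 and 1), and 6 separate arrays gave 6207 and 5929 (members' lower 4, lists' lower 27). Array weights gave 6980 and 6731 (members' lower 4, lists' lower 31), 1 probe per gene 2761 and 2463 (members' higher 1), and no filter on dim probes 2494 lower (lists' lower 6). The authors' values gave 4 members' probes lower. With scan as a random block (correlation 0.566) the lists' lower count was 8.

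Centring on the median moved the median over all probes by 0.25 and the share of higher among called probes from 52.8% to 63.9%, with 1712 lower, and lists at 15 higher and 6 lower; normexp moved the median by 0.18 and array weights by 0.12. Deviations from the group means correlated by 0.122, 0.0358 and 0.0831 between arrays of the same replicate number. Between arrays of different numbers the correlations ran from -0.1417 to 0.0537. These small values do not settle whether replicate numbers pair the samples. A replicate block with 6 separate arrays gave 4360 higher and 4198 lower over all probes and 4 members' probes lower, the added ones being 2 Plagl1 probes. The cause of these shifts was not tested beyond the fewer samples or probes that a setting leaves. Signal near the background limits Peg3, Dlk1, Meg3, Nnat, Peg10 and Grb10.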

Other observations

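Zfp57, the reader of the hexamer shown in capitals in the promoters, was looked at after its values were seen. Its 2 tested probes read -0.70 (limma adjusted p = 0.0743) and 0.14 (limma adjusted p = 0.575) and were not called. Among fetal growth genes of other imprinted clusters, also singled out after their values were seen, Igf2 differed by -0.04 ± 0.50 (limma adjusted p = 0.956), with 2 of 3 DDC injury arrays well above background. Cdkn1c, a cell cycle inhibitor, read -5.65, -6.14 and -5.49 in DDC injury cells and -5.71, -5.93 and -5.57 in no-injury cells, a difference of 0.03 ± 0.25 (limma adjusted p = 0.949). Igf2r, the receptor that clears IGF2, read 1.48, 2.12 and 1.68 against 2.38, 2.37 and 2.36, without overlap, and did not pass (-0.61 ± 0.23, limma adjusted p = 0.116). Phlda2 differed by 0.35 ± 0.79 and did not pass. Slc22a18, next to it, read -0.48, -2.49 and -0.62 against 1.48, 1.49 and 1.51, a difference of -2.68 ± 0.70 that just missed the threshold (limma adjusted p = 0.0518), with DDC injury replicate 2 lowest, as in both bright Plagl1 probes and in Cobl.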
